A study of Mus musculus with 9 samples.

Results

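Voltage-gated calcium, potassium and sodium channels, with the potassium and cation channels related to them, were followed in RNA of sorted amygdala cells from mice of 3 behavioral phenotypes. Members were the genes whose mouse symbol, read from the Ensembl identifier, begins with Cacna, Cacnb, Cacng or Kcn, or is an Scn gene ending in a or b or an Hcn gene. The annotation held 143 such symbols, of which 138 were protein coding and 5 were non-coding antisense genes that neither table listed. Of the 138, 52 were among the 9872 genes of the table for BA and AV mice and 53 among the 11820 genes of the table for BA and AP mice. Both tables listed 44 of them and 61 were in at least 1. Of the 143 symbols, 82 were in neither, and since the authors had filtered out genes with low counts, an absent gene was not measured here as absent. Among those absent from both tables were Scn2b, Scn4b, Hcn2, Cacna1e and Cacna1i.

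All mice were of the transgenic line B6.Cg-Tg(Thy1-YFP)HJrs/J, in which the Thy1 promoter drives yellow fluorescent protein in pyramidal neurons of layer 5, amygdala and hippocampus and, less strongly, in some other neurons. In a maze in which palatable food lay in a lit white arm and standard food in a dark one, 3 mice with balanced choices (BA), 3 avoiding mice (AV) and 3 approaching mice (AP) were selected, and they were killed 1 month later. Cells positive for the fluorescent protein and negative for a dye of dead cells were sorted from the amygdala of each mouse, and the RNA of 1 mouse made 1 library. Values of AV mice 1 and 3 were analysed, and AV mouse 2 was not used here. The mice carried the same transgene and their ages are not given in the sources used here, so the groups differed by phenotype alone as far as the labels say.

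The pore of a voltage-gated channel opens when the membrane potential changes. Calcium channels (Cacna1 genes) let in the calcium that triggers transmitter release and gene regulation, sodium channels (Scn genes) start the action potential, and potassium channels end it and set the firing rate. Auxiliary subunits (Cacna2d, Cacnb, Cacng, the beta subunits among the Scn genes, Kcnab, Kcne, Kcnip and Kcnmb genes) do not conduct but change how pores are trafficked and gated. Inward rectifiers (Kcnj) and 2-pore-domain channels (Kcnk) hold the resting potential, and in glia they also take up potassium.

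For the pore-forming genes with the greatest change of level between AV and BA mice, the DNA just before the gene start is shown, so that the reader sees what the promoters look like whose genes differ below. The choice was made among the 7 changed pore-forming genes with a single RefSeq start and no annotated exon in the window, and covers the greatest 2 rises and the greatest 2 falls. The windows are the 250 bases upstream of the start in RefSeq (GRCm38.p6), all on the plus strand, and capitals mark the letters GGGCGG or their reverse complement CCGCCC, the core of the GC box. Kcnt2 was at chr1:140245468-140245717, Kcnc1 at chr7:46396218-46396467, Kcnk13 at chr12:99964249-99964498 and Kcnj2 at chr11:111065914-111066163. For Kcnt2 and Kcnc1 the RefSeq start lies upstream of the gene start in the annotation used for positions elsewhere in this report.
Kcnt2: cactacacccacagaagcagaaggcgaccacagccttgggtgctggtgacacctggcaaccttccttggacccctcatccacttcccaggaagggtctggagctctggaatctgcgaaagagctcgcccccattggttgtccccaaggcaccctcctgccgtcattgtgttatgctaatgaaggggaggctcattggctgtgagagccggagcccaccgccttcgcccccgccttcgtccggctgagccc
Kcnc1: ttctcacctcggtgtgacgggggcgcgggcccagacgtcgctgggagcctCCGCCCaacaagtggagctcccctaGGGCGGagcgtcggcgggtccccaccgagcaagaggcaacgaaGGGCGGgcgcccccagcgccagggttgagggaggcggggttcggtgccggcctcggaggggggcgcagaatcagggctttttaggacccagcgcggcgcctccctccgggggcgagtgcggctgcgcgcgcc
Kcnk13: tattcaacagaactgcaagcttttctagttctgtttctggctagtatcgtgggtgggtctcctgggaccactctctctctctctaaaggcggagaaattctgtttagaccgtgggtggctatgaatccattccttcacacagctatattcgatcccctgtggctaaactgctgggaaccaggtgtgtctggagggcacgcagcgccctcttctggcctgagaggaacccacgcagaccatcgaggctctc
Kcnj2: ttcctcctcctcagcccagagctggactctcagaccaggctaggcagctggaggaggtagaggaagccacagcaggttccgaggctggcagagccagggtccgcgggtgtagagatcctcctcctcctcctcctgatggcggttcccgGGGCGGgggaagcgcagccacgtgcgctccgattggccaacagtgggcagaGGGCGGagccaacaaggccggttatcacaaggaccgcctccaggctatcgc
The motif, searched on both strands, was found at 3 places in the Kcnc1 window and at 2 in the Kcnj2 window, and the windows of Kcnt2 and Kcnk13 held none. Of all 32817 promoter windows of this length in the table, 32.7% held it. So 1 of the genes that rose and 1 of those that fell had the motif. Only 42 of the 61 listed channel genes have a promoter in the table, so no statement on the whole set was made.

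The labelled cell type was checked first against marker genes. Of 10 markers of pyramidal neurons only Nrgn, a postsynaptic calmodulin-binding protein, was listed in the tables, and Slc17a7, Rbfox3 and Snap25 were not. The summed level of the 6 oligodendrocyte markers was between 179351 and 222221 in BA mice and between 51194 and 78859 in AV mice, and 4 of the 6 fell in AV mice. The 6 listed astrocyte markers summed to between 9564 and 15229 in BA mice and to between 30629 and 59756 in AV mice, and 4 rose. Nrgn was at 11.7 to 16.3 in BA mice and at 128.6 and 130.8 in AV mice. Of 8 microglial markers, 3 were listed and all 3 rose, and the precursor marker Pdgfra rose too, while 1 of 4 listed endothelial and mural markers fell. Of 6 markers of inhibitory neurons none was listed in that table. In AP mice no marker passed the test, although the 8 microglial markers summed to between 3011 and 5463 against 1109 to 2248 in BA mice. The marker levels thus moved with the comparison of AV and BA mice, and their part in the channel results below was not tested. In such bulk samples fewer cells of a type and less RNA per cell cannot be told apart.

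**Figure D1:**
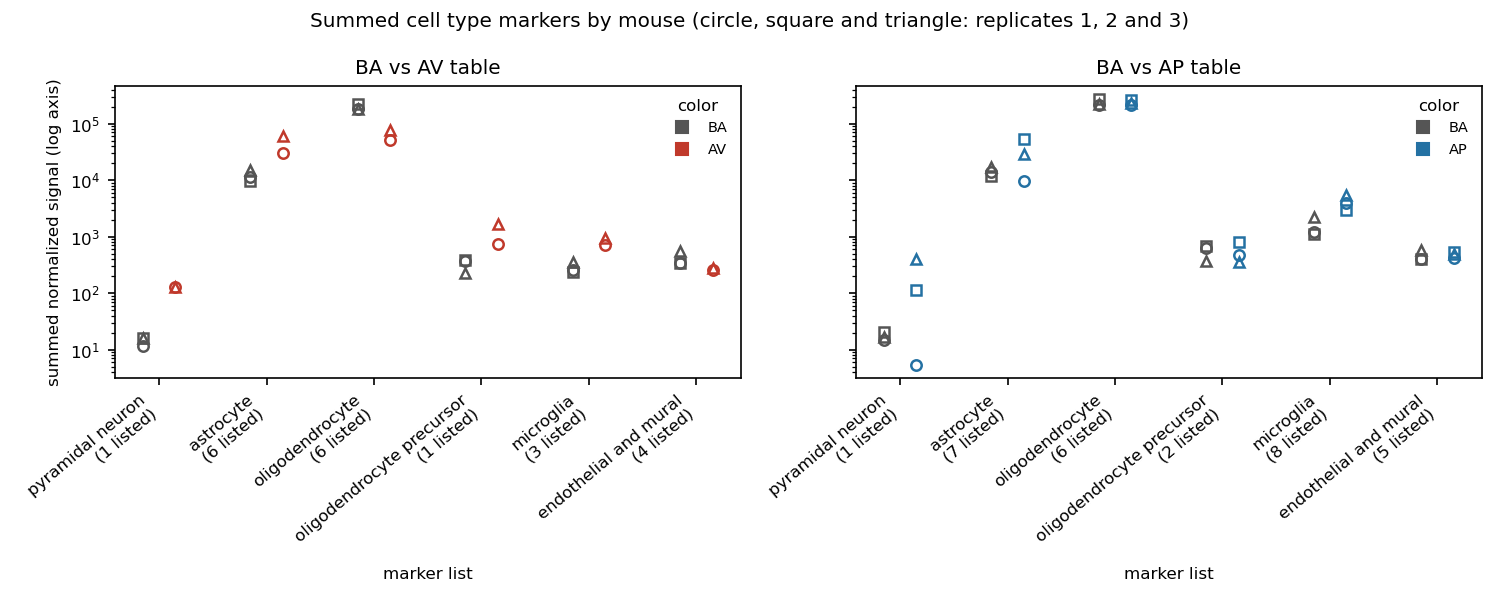
Summed normalized signal (log axis) of the listed markers of each cell type by mouse, for BA and AV mice on the left and BA and AP mice on the right. AV mice lie below BA mice for oligodendrocytes and above them for astrocytes, microglia and Nrgn, and AP mouse 1 lies below the BA mice for astrocytes and Nrgn while AP mice 2 and 3 lie above them.

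The values are a signal normalized by the authors, and each comparison was made within its own table. In the table of BA and AV mice, for which the reads behind the values were not estimated, the values of 1 mouse summed to 3267967 at the lowest and 3974274 at the highest. In the table of BA and AP mice these sums ran from 4589304 to 5072766. Low values of the latter lay on steps of 1 read above an offset of 2, from which between 3817160 and 6720729 reads per mouse were estimated. These estimates cover the listed genes and lie well under the number of sequenced reads that the paper gives per library. Each replicate is 1 mouse, so p values measure the spread between mice that was left after the authors' processing. The paper names the batch correction ARSyN without saying for which table. Such a correction can narrow the spread, and its part in the p values was not tested. A gene was called changed at an adjusted p under 0.05 in limma, and a fold change is the difference of log2(value + 1), which understates the change of low genes.

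Compared with BA mice, AV mice had higher levels of most listed channel genes. Of the 52, 30 passed the test, 24 higher and 6 lower (limma, adjusted p under 0.05), while 29.7% of all genes in the table passed it, 13.6% higher and 16.2% lower. Calcium channel pores and their gamma subunits, sodium channels and the large-conductance potassium channel were among those that rose, and none of these families had a member that fell. The genes that fell were Kcna1, Kcna6, Kcnj2, Kcnk13, Kcnrg and Cacna2d4. The median log2 fold change was 0.99 over the 52 channel genes and -0.026 over all genes. In 40 of 52 the change was above 0, against 48.5% of all genes. At an unadjusted p under 0.05 there were 36 (28 higher, 8 lower) against 43.2% of all genes (20.2% higher, 23.0% lower). The values of AV and BA mice did not overlap in 41 genes, 31 higher and 10 lower, against 58.9% of all genes (27.7% higher, 31.3% lower). Measured against the BA mean, the median channel gene was 0.98 higher in AV mouse 1 and 1.25 higher in AV mouse 3 on the log2 scale, whereas the BA mice lay between -0.051 and 0.014. A low gene can pass the authors' filter through the group where it is high, and 8 of the 52 genes (Cacna1g, Cacnb2, Hcn3, Kcna4, Kcng3, Kcng4, Kcnj3 and Kcns3) were in the BA vs AV table alone. All 8 were above 0 and 4 rose, where 77.4% of all 455 genes in that table alone were above 0 and 24.2% rose, so these 8 are no support for a direction. Of the 44 channel genes that both tables listed, 20 rose and 6 fell, with a median of 0.95, against 13.0% and 16.6% of all 9417 genes in both tables, with a median of -0.052. With each of the 5 mice left out in turn, 21 of the 52 channel genes kept their call in every fit, against 13.5% of all genes.

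Among pore-forming and auxiliary genes alike, more rose than fell. Of 39 listed pore-forming genes 16 rose and 4 fell, with a median of 0.96, and of 13 auxiliary genes 8 rose and 2 fell, with a median of 1.23. By mouse the pore-forming median was 0.69 in AV mouse 1 and 1.24 in AV mouse 3, and the auxiliary median was 1.30 and 1.37. The roles were not tested against each other. Summed levels weigh the abundant genes most. The 52 genes summed to between 12354 and 14174 in BA mice and to 12449 and 13857 in AV mice, which overlap. Potassium pores of all families summed to 7904 and 9481 in AV mice against 9720 to 11776 in BA mice. The values of all genes also summed lower in AV mice, to 3267967 and 3440617 against 3753466 to 3974274. The small gap between 9481 and 9720 is thus not read as a difference. The voltage-gated potassium pores summed to 4168 and 4321 in AV mice against 5608 to 6892 in BA mice. The summed auxiliary genes did not overlap and were higher in AV mice, with 1592 to 1877 in BA mice and 2266 and 2466 in AV mice.

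**Figure D2:**
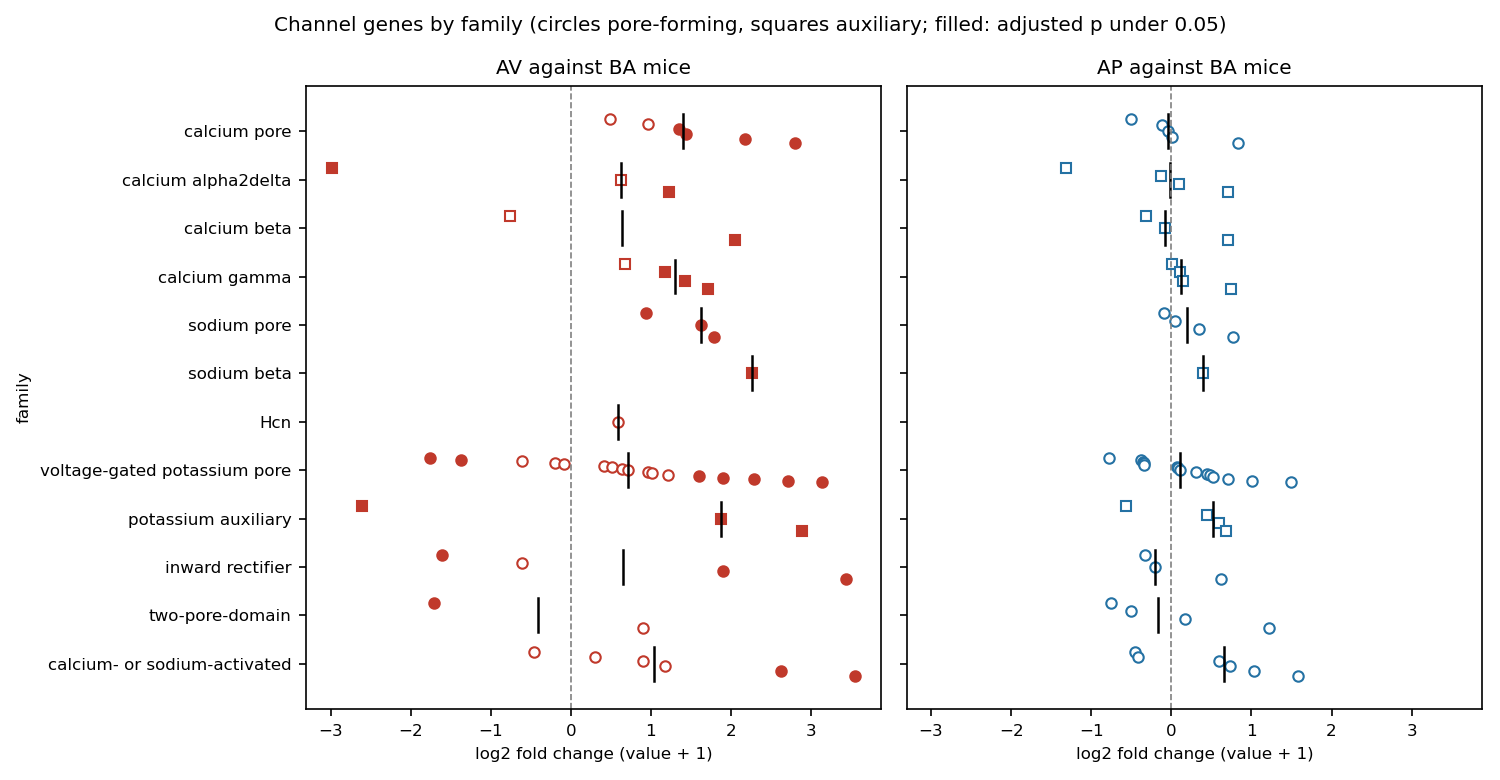
Log2 fold change of each listed channel gene by family, in AV against BA mice on the left and AP against BA mice on the right. Each symbol is 1 gene (circles pore-forming, squares auxiliary, filled where adjusted p is under 0.05), and black bars are family medians. On the left most symbols lie above 0 and 30 are filled, and on the right none is.

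All 6 listed calcium channel pores were higher in AV mice on average and 4 of them rose. Cacna1b, the N-type pore of presynaptic terminals, was at 28.7, 18.7 and 27.3 in BA mice 1, 2 and 3 and at 125 and 104 in AV mice 1 and 3. The AV mice were well apart from the BA mice, and the log2 fold change, given here with its SE, was 2.18 ± 0.27 (limma, adjusted p = 0.0036). In the same order of mice, which is kept from here on, Cacna1a, the P/Q-type pore, was at 156, 123 and 129 and at 348 and 391, a log2 fold change of 1.44 ± 0.23 (limma, adjusted p = 0.00607). The groups did not overlap here either. Cacna1c, the main L-type pore of the brain, was at 153, 84.6 and 91.4 in BA mice and at 302 and 245 in AV mice, again without overlap, with a log2 fold change of 1.35 (limma, adjusted p = 0.02). Its call was lost without BA mouse 2 or BA mouse 3 (adjusted p = 0.0756 and 0.0698). Cacna1g, a low-voltage-activated T-type pore, was at 20.9, 15.3 and 3.17 and at 52.8 and 117, a log2 fold change of 2.80 ± 0.72 (limma, adjusted p = 0.0277). The low value of BA mouse 3 widened this difference, which was 2.07 without that mouse, and without BA mouse 2 the call was lost (adjusted p = 0.0677).

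The remaining calcium pores did not pass the test. Cacna1d, the other L-type pore of neurons, was at 149, 65.2 and 160.4 in BA mice and at 187 and 275 in AV mice, where both AV mice were above every BA mouse (log2 fold change 0.96, limma, adjusted p = 0.133). Cacna1h, a T-type pore, was at 141, 115 and 66.2 and at 131 and 159, which overlap (log2 fold change 0.49, limma, adjusted p = 0.324). The 6 calcium pores together summed to between 422 and 649 in BA mice and to between 1145 and 1291 in AV mice.

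The auxiliary calcium subunits split in direction. Among alpha2delta subunits, which bring pores to the membrane and bind gabapentin in some forms, Cacna2d4 fell and Cacna2d1 rose. Cacna2d4, known from photoreceptors, was at 147, 203 and 231 in BA mice and at 14.1 and 38.2 in AV mice. Both were far below all BA mice, and the log2 fold change was -2.98 ± 0.43 (limma, adjusted p = 0.00498), the lowest of the 52 genes. It was -2.29 without AV mouse 1 and -3.67 without AV mouse 3. Cacna2d1 was at 217, 153 and 288 and at 682 and 365, without overlap and with a log2 fold change of 1.23 (limma, adjusted p = 0.0483). This call held in 1 of 5 fits with a mouse left out. The adjusted p was 0.133 without AV mouse 1, where the log2 fold change was 0.78, and 0.122, 0.142 and 0.0597 without BA mouse 1, 2 and 3. Cacna2d2 was at 47.1, 47.2 and 51.7 and at 67.5 and 85.2 and missed the threshold (log2 fold change 0.63, limma, adjusted p = 0.0727).

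Beta subunits are cytoplasmic and release the pore from the endoplasmic reticulum. Cacnb4, the beta subunit with the highest level per exon kilobase, was at 755, 722 and 851 in BA mice and at 587 and 355 in AV mice. Both AV mice were lower than all BA mice, and the change missed the threshold (log2 fold change -0.76, limma, adjusted p = 0.0801). Cacnb2 was at 10.98, 19.96 and 33.3 and at 80.01 and 87.4 and rose by 2.05 on the log2 scale (limma, adjusted p = 0.0141), although without BA mouse 2 the adjusted p was 0.0566.

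The gamma subunits listed here are better known as auxiliary proteins of AMPA-type glutamate receptors than of calcium channels. Of the 4 listed, 3 rose and none fell. Cacng4 was at 71.2, 112 and 66.03 in BA mice and at 240.1 and 295 in AV mice, giving a log2 fold change of 1.71 ± 0.29 (limma, adjusted p = 0.00753). Cacng7, the most abundant of them per exon kilobase, was at 196, 202 and 212 and at 399 and 528, a log2 fold change of 1.17 ± 0.23 (limma, adjusted p = 0.0113). Cacng8, the form typical of forebrain synapses, was at 15.9, 17.2 and 20.02 and at 40.96 and 58.3, a log2 fold change of 1.42 ± 0.25 (limma, adjusted p = 0.00813). In all 3 the AV mice lay above every BA mouse. Cacng5 was low, at 15.1, 8.37 and 7.47 and at 25.8 and 10.2, and overlapped.

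All 4 listed sodium channel genes rose in AV mice. Scn1a, the pore abundant in fast-spiking interneurons, was at 23.96, 37.05 and 22.1 in BA mice and at 89.5 and 102 in AV mice, giving a log2 fold change of 1.78 ± 0.28 (limma, adjusted p = 0.00616). Scn3a, the pore of the embryonic brain, was at 48.2, 54.5 and 37.3 and at 198 and 105, a log2 fold change of 1.63 ± 0.33 (limma, adjusted p = 0.0129), and just missed the threshold without BA mouse 1 (adjusted p = 0.0503). Neither gene had overlapping groups. Scn8a, the pore of the axon initial segment and nodes of Ranvier, had the highest level per exon kilobase of the sodium pores. It was at 295, 287 and 394 and at 638 and 595, with the smallest change of the family (log2 fold change 0.94 ± 0.24, limma, adjusted p = 0.0278). The call was lost without AV mouse 1, BA mouse 1 or BA mouse 2 (adjusted p = 0.0523, 0.0902 and 0.0979). Scn3b, the only auxiliary sodium subunit listed, was at 14.9, 17.2 and 16.7 and at 65.1 and 103, with the AV mice several times above the BA mice. Its log2 fold change was 2.27 ± 0.26 (limma, adjusted p = 0.00328). Scn2a, the main pore of young pyramidal axons, was listed in the other table alone.

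**Figure D3:**
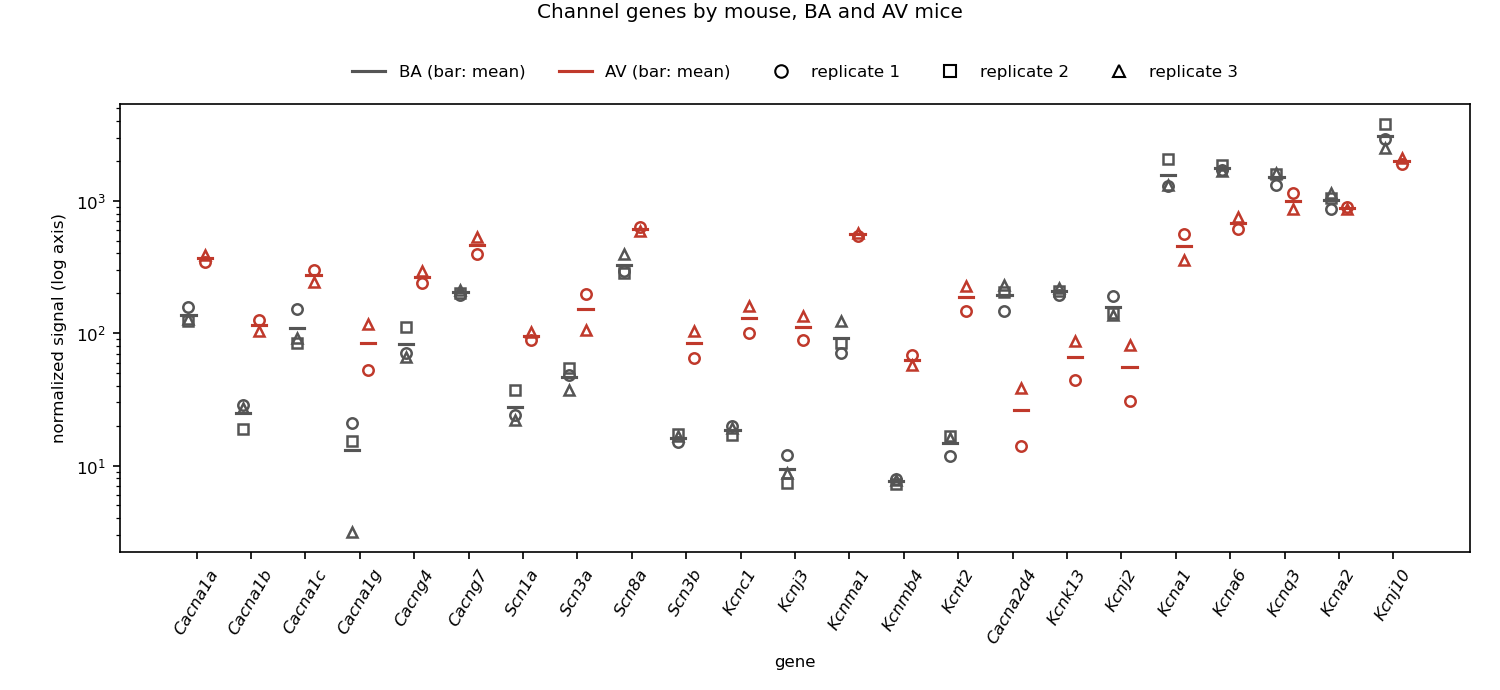
Normalized signal (log axis) of 23 channel genes in the 3 BA mice (grey) and the AV mice 1 and 3 (red), with a bar at each group mean. For the genes from Cacna1a to Kcnt2 both red symbols lie above the grey ones, from Cacna2d4 to Kcnq3 and for Kcnj10 they lie below, and for Kcna2 they overlap.

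Voltage-gated potassium pores were the largest family and moved in both directions. Of 17 listed genes 5 rose, 2 fell and 10 did not pass the test. Kcnq3, a pore of the M channel, which muscarinic receptors close, was at 1319, 1606 and 1629.8 in BA mice and at 1136 and 867 in AV mice. It lay lower in both AV mice than in any BA mouse but missed the threshold (log2 fold change -0.61, limma, adjusted p = 0.0996).

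Kcnc1, a Kv3 pore of fast-spiking cells, was at 19.9, 17.1 and 19.1 in BA mice and at 101 and 162 in AV mice, giving a log2 fold change of 2.71 ± 0.27 (limma, adjusted p = 0.00297). The groups stood well apart. Kcnh5, an ether-a-go-go pore, rose by 1.90 (limma, adjusted p = 0.00628), from 18.9, 16.2 and 28.1 to 67.2 and 93.5. Kcna4, a Kv1 pore that inactivates rapidly, was low, at 3.98, 5.57 and 9.88 and at 16.3 and 25.8, and the first 2 of its BA values were under the level of 3 reads, taken as 5.68 from the other table. It rose by 1.61 (limma, adjusted p = 0.0216), and not without BA mouse 1 or BA mouse 2 (adjusted p = 0.0688 and 0.0805). Kcnd2, the A-type pore of dendrites, was at 116, 96.7 and 58.6 and at 125 and 236 and missed the threshold (log2 fold change 0.97, limma, adjusted p = 0.105).

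The genes of the family that fell were Kv1 pores, which sit along axons and beside the nodes of myelinated fibers. Kcna1 was at 1288, 2062 and 1315 in BA mice and at 559 and 359 in AV mice, giving a log2 fold change of -1.76 ± 0.32 (limma, adjusted p = 0.009). Kcna6 was at 1720.1, 1864 and 1679 and at 609 and 753, a log2 fold change of -1.37 ± 0.22 (limma, adjusted p = 0.00634). Every AV mouse was below every BA mouse in both genes, as were the summed oligodendrocyte markers given above, whose part was not tested. Kcna2, their usual partner in axonal channels, was at 864, 1041 and 1141 and at 892 and 867, overlapped, and did not pass the test (log2 fold change -0.20, 95% interval -0.74 to 0.34, limma, adjusted p = 0.539). The low Kcna3 was at 12.02, 19.2 and 20.8 and at 23.7 and 21.9 (log2 fold change 0.41, limma, adjusted p = 0.31). Of the rest of this family, Kcnd1, Kcng3, Kcng4, Kcnh8 and Kcns3, had log2 fold changes between -0.087 and 1.22 and did not pass. The paper describes stranded libraries but does not state how the counting used the strand. Exon bases shared with a gene of the other strand therefore leave some values uncertain. Counted with the 1 gene that shares most, these bases number 2355 in Kcna6, 1621 in Kcnj3, 1433 in Cacnb4 and 1016 in Kcnma1. They number 711 in Hcn3, 693 in Kcnmb4, 618 in Cacnb2 and 589 in Cacna1d. Kcnmb4 shared a further 355 with another gene, and Cacnb2 239 and 111 with others.

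The 3 listed auxiliary potassium genes all passed the test. Kcnmb4, the neuronal beta subunit that slows the large-conductance calcium-activated channel, was at 7.93, 7.29 and 7.75 in BA mice and at 68.9 and 57.5 in AV mice. The log2 fold change was 2.89 ± 0.22 (limma, adjusted p = 0.00256). The BA level was low, with 9, 6 and 5 reads estimated for BA mice 1, 2 and 3 in the other table. The small spread of the BA values is that of processed values and is no measure of certainty. Kcnip3, a calcium-binding protein that accompanies Kv4 pores and also represses transcription, was at 78.03, 53.4 and 57.5 and at 191 and 278, a log2 fold change of 1.87 ± 0.28 (limma, adjusted p = 0.00533). Kcnrg, a soluble protein that resembles the assembly domain of Kv pores, was at 30.6, 30.02 and 34.6 and at 4.05 and 4.73. Both AV values were under the level of 3 reads of the other table, so Kcnrg was at least 5.59-fold lower (limma, adjusted p = 0.00256). The medians above were the same with Kcnrg set at that bound.

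Among calcium- and sodium-activated potassium pores 2 of 6 listed genes rose. Kcnma1, the large-conductance pore that Kcnmb4 joins, was at 70.4, 83.6 and 123 in BA mice and at 544 and 575 in AV mice, giving a log2 fold change of 2.62 ± 0.29 (limma, adjusted p = 0.00319). Kcnt2 (ENSMUSG00000052726.15, chromosome 1, 140246158 to 140612067, plus strand), a sodium-activated pore, was at 11.8, 16.8 and 16.1 and at 147 and 229. This was the largest rise of the 52 genes, with a log2 fold change of 3.55 ± 0.29 (limma, adjusted p = 0.00256), and AV and BA mice were far apart. Its close relative Kcnt1 was at 218, 163 and 86.7 and at 192 and 167 and overlapped (log2 fold change 0.30, limma, adjusted p = 0.596). The small-conductance pores Kcnn2, at 171, 148 and 106 and at 203 and 335, and Kcnn3, at 125, 91.4 and 289 and at 229 and 503, missed the threshold (limma, adjusted p = 0.0735 and 0.145). Kcnu1, a pore known from sperm, was at 23.3, 18.6 and 24.4 and at 14.1 and 17.5 and missed it too (limma, adjusted p = 0.184).

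Inward rectifiers moved in both directions. Kcnj3 (ENSMUSG00000026824.11, chromosome 2, 55435970 to 55598145, plus strand), a pore that G proteins open in neurons, was at 11.96, 7.36 and 8.76 in BA mice and at 88.1 and 134 in AV mice, giving a log2 fold change of 3.43 ± 0.30 (limma, adjusted p = 0.00278). The groups were far apart, as in Kcnt2. Kcnj10, the glial pore that buffers potassium and the channel gene with the highest level per exon kilobase, was at 2925, 3810.0 and 2502 and at 1892 and 2099. It was lower in both AV mice than in every BA mouse and missed the threshold (log2 fold change -0.61, limma, adjusted p = 0.117). Kcnj16, which joins Kcnj10 in 1 channel, rose. It was at 90.7, 105 and 109 and at 207 and 700.1, so that AV mouse 3 stood far above AV mouse 1 (log2 fold change 1.90 ± 0.48, limma, adjusted p = 0.0266). The change was 1.03 without AV mouse 3 and 2.78 without AV mouse 1, and the adjusted p was 0.0906, 0.0849 and 0.0739 without BA mouse 1, 2 and 3. AV mouse 3 also had the higher astrocyte sum of the 2, 59756 against 30629, while Kcnj10 was lower in both AV mice. The part of the astrocyte markers was not tested.

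Kcnj2, the classical strong inward rectifier, fell. It was at 191, 142 and 137 in BA mice and at 30.5 and 81.4 in AV mice, without overlap (log2 fold change -1.61 ± 0.42, limma, adjusted p = 0.0286). Without AV mouse 1 the change was -0.92 and without AV mouse 3 -2.31, and without BA mouse 1, 2 or 3 the call was lost (adjusted p = 0.0982, 0.0838 and 0.0709). Of the 2-pore-domain genes Kcnk13, a leak pore studied in microglia, was at 193, 207 and 219.7 and at 44.3 and 87.2, a log2 fold change of -1.71 ± 0.32 (limma, adjusted p = 0.00943). Its direction was opposite to that of the 3 listed microglial markers. Kcnk1, a weak leak pore, was at 81.3, 90.8 and 123 and at 144 and 231 and lay higher in both AV mice but missed the threshold (log2 fold change 0.91, limma, adjusted p = 0.0629). The pacemaker channels were represented by Hcn3 alone, low in all mice, at 12.1, 5.64 and 6.38 and at 7.402 and 18.9 (log2 fold change 0.58, limma, adjusted p = 0.357).

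Level and direction of change are set side by side as a description. Per exon kilobase the BA mice of the BA vs AV table had a mean level of 569 for Kcnj10, 325 for Kcna1 and 295 for Kcna6. Next came Kcnq3 at 103, Cacnb4 at 86.6, Kcna2 at 85.3 and Cacng7 at 83.3. Kcna1 (270 to 431) and Kcna6 (282 to 314) did not differ beyond their spread over BA mice, and neither did Cacnb4 (80.6 to 94.997), Kcna2 (72.5 to 95.9) and Cacng7 (80.1 to 87.0). Kcnj10 (463 to 705) lay above both Kv1 genes in its lowest mouse. At the other end Kcnt2, Kcnj3, Kcnmb4, Cacna1g and Kcnc1, which were among the genes that rose most in AV mice, were all under 3 per exon kilobase. Of these, Kcnj3 and Cacna1g are among the 8 genes in the BA vs AV table alone, and the part of the filter in this pattern was not tested. Of the 10 genes with the highest level over all mice of the table, 2 rose, 3 fell and 5 were not called, with a median log2 fold change of -0.61. Of the other 42, 22 rose, 3 fell and 17 were not called, with a median of 1.22.

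**Figure D4:**
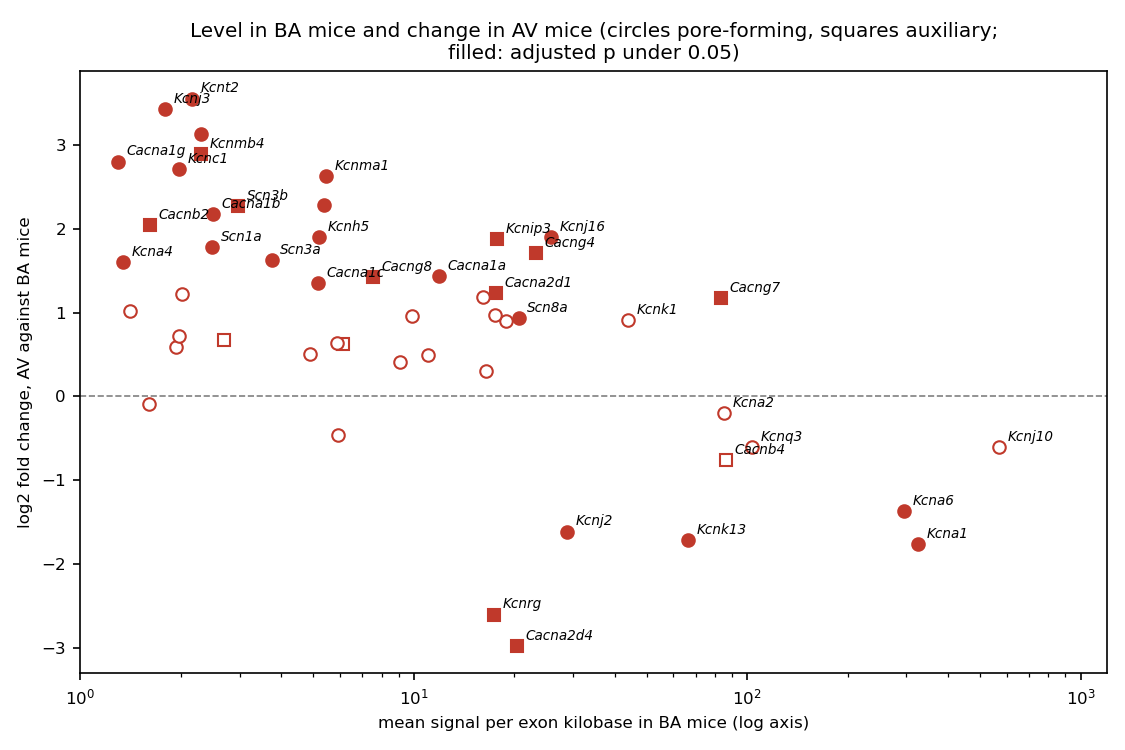
Mean normalized signal per exon kilobase in BA mice (log axis) against the log2 fold change of AV against BA mice, for the 52 listed channel genes (filled where adjusted p is under 0.05). The BA values enter both axes, and a gene low in BA mice could enter the table through high AV values. The genes that rose most lie at the left, under 3 per exon kilobase, while Kcnj10, Kcna1, Kcna6 and Kcnq3, the highest at the right, lie below 0.

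Channel partners, taken from a separate list of 42 genes, mostly rose in AV mice. For BA and AV mice there were 25 of them listed, of which 18 rose and 2 fell, with a median log2 fold change of 0.99, against 13.6% higher, 16.2% lower and a median of -0.026 over all genes of the table. Dlg4, the scaffold of the postsynaptic density, rose by 2.73 on the log2 scale (limma, adjusted p = 0.00288). Fgf12 and Fgf13, intracellular factors that bind sodium channels, rose by 2.37 and 2.59 (limma, adjusted p = 0.00304 and 0.00464). Dpp6, a partner of Kv4 pores, rose by 1.93, and the leak channel Nalcn by 0.99. Those that fell were Ank3, which anchors sodium channels and Kcnq3 at the axon initial segment, by 0.80 (limma, adjusted p = 0.0366), and Pex5l, an auxiliary protein of Hcn channels, by 1.61 (limma, adjusted p = 0.00464).

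Compared with the same 3 BA mice, AP mice showed no channel gene past the threshold. Of 53 listed genes limma called 0 at an adjusted p under 0.05, where 0.00846% of all genes, 1 in all, were called. At an unadjusted p under 0.05 there were 4, Kcnh4, Kcnk6 and Kcnip3 higher and Cacna2d4 lower, which is 7.55% of the 53 against 7.77% of all genes (4.99% higher, 2.77% lower). The share was close to the background, so it is no result about channels. AP and BA values did not overlap in 4 genes, 2 higher and 2 lower, which is 7.55% against 12.1% of all genes (5.64% higher, 6.45% lower). In 33 of 53 the log2 fold change was above 0, against 46.5% of all genes. Of the 53, 9 were in the BA vs AP table alone, among them Kcnh4, Kcnk6 and Scn2a. Such genes can pass the authors' filter through high AP values, so they are no support for a direction. The counts without them are not given. The median log2 fold change was 0.10 over the channel genes, 0.080 over 37 pore-forming and 0.12 over 16 auxiliary genes, against -0.032 over all genes. Since the AV and AP comparisons share their control mice, they were not tested against each other.

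The AP mice differed among themselves. Measured against the BA mean, the median channel gene was -0.044 in AP mouse 1, 0.26 in AP mouse 2 and 0.22 in AP mouse 3 on the log2 scale. Kcnt2 was at 12.7, 20.4 and 16.7 in BA mice and at 9.96, 87.01 and 144 in AP mice 1, 2 and 3. So AP mouse 1 was below the BA mice and the other AP mice far above them (log2 fold change 1.58 ± 0.82, limma, adjusted p = 0.696). Without AP mouse 1, Kcnt2 was the 1 channel gene called (adjusted p = 0.0425). Kcnma1 was at 94.7, 118 and 143 and at 116, 246 and 482, where AP mouse 1 was among the BA mice and the others above them (log2 fold change 1.03 ± 0.47, limma, adjusted p = 0.66). The neuronal marker Nrgn was at 5.41, 112.5 and 396.7 in these mice against 14.8 to 20.4 in BA mice, and astrocyte markers summed to 9657, 52584 and 29644 against 12085 to 17179. AP mouse 1 was the lowest AP mouse in each of these, and the part of the markers was not tested.

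Calcium channels of AP mice overlapped with those of BA mice. Cacna1b was at 33.97, 25.6 and 28.97 in BA mice and at 25.9, 40.96 and 138 in AP mice, the highest log2 fold change of the calcium pores (log2 fold change 0.83, limma, adjusted p = 0.717). AP mouse 3 stood far above the rest and AP mouse 1 among the BA mice. Cacna1h was at 155, 149 and 75.6 and at 130.5, 67.2 and 69.05, the greatest difference in the other direction (-0.50, limma, adjusted p = 0.744). Cacna1a, at 187, 152 and 143 and at 162, 132 and 174, had a log2 fold change of -0.04 with a 95% interval of -0.56 to 0.48. Cacna1c and Cacna1d had log2 fold changes of 0.013 and -0.12, and their groups overlapped. Among auxiliary subunits Cacna2d4 was at 163, 239 and 280.3 and at 225, 57.96 and 52.8, so that AP mice 2 and 3 were below all BA mice and AP mouse 1 among them (log2 fold change -1.32 ± 0.53, limma, unadjusted p = 0.0355, adjusted p = 0.606). Cacna2d1 was at 245, 189.6 and 331 and at 242, 423 and 662 (log2 fold change 0.71), Cacnb3 at 59.5, 35.8 and 27.7 and at 38.4, 90.5 and 76.6 (0.71) and Cacng5 at 15.9, 10.2 and 8.13 and at 16.8, 14.04 and 29.03 (0.74). Cacnb4 was at 875, 893 and 993 and at 892, 641 and 694 (-0.32), and none of these passed.

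**Figure D5:**
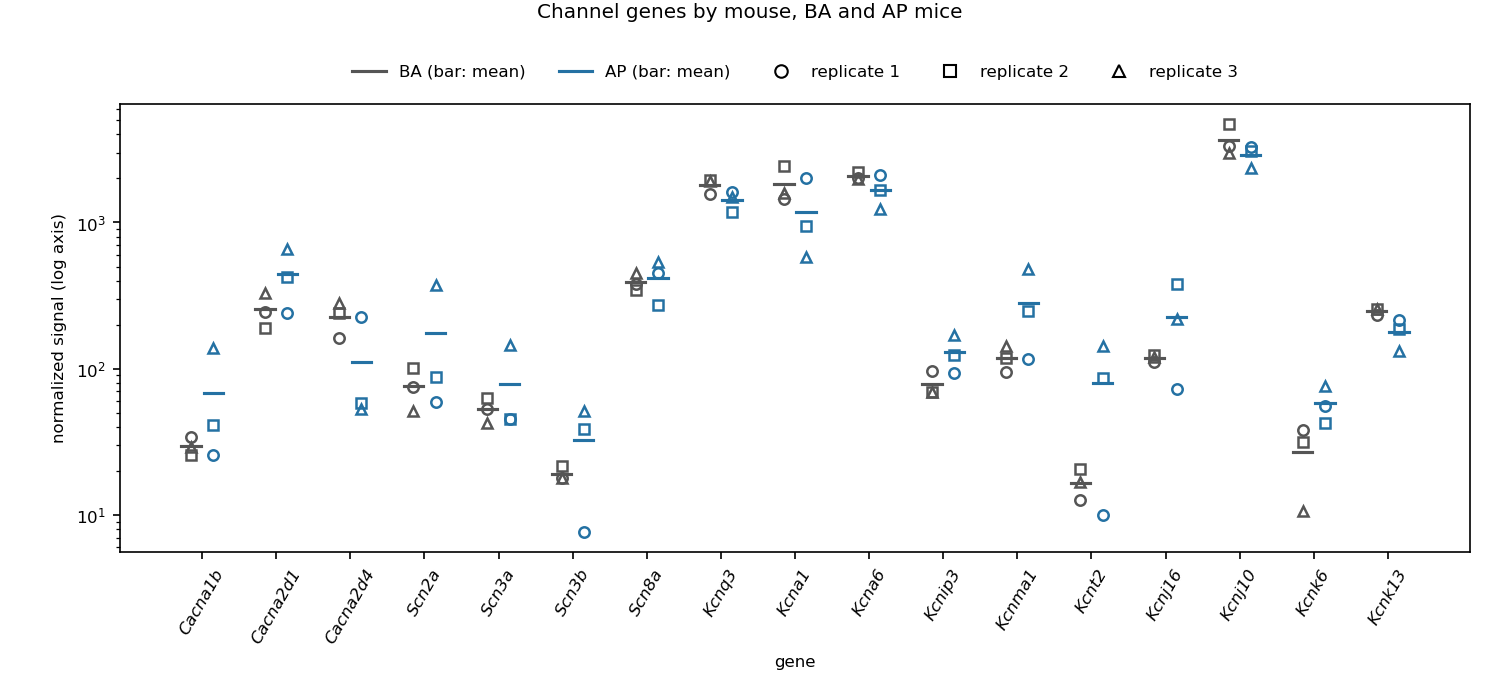
Normalized signal (log axis) of 17 channel genes in the 3 BA mice (grey) and 3 AP mice (blue), with a bar at each group mean. In Kcnt2 and Scn3b the circle of AP mouse 1 lies below the BA mice and the triangle of AP mouse 3 far above them, and only Kcnk6 and Kcnk13 show groups that do not overlap.

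None of the sodium channel genes of AP mice passed the test. Scn2a, listed in this table, was at 74.5, 101 and 51.03 in BA mice and at 58.8, 88.2 and 376 in AP mice (log2 fold change 0.77 ± 0.62, limma, adjusted p = 0.763). AP mouse 3 alone was above the BA mice. Scn3a was at 53.2, 63.5 and 42.5 and at 45.2, 45.2 and 146, with AP mouse 3 again alone above (log2 fold change 0.35, limma, adjusted p = 0.846). Scn3b was at 17.99, 21.5 and 17.9 and at 7.68, 38.8 and 51.7, which spread to both sides of the BA mice (log2 fold change 0.39, limma, adjusted p = 0.872). Scn8a, at 379, 346 and 454 and at 452, 274 and 533, and Scn1a, at 29.7, 42.999 and 24.1 and at 23.6, 29.1 and 36.6, had log2 fold changes of 0.049 and -0.094.

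Of the potassium genes of AP mice, Kcnh4, an ether-a-go-go-like pore, had the smallest unadjusted p of the 53 (0.000698, limma, adjusted p = 0.248). It was at 2, 4.05 and 2 in BA mice and at 9.96, 6.96 and 10.7 in AP mice, which is 0, 2 and 0 reads against 7, 7 and 8. The BA mice were at or under the level of 3 reads, so no fold is given, and the gene was in the BA vs AP table alone. Kcnk6, a leak pore of macrophages and other cells, was at 38.2, 31.7 and 10.6 and at 55.4, 42.4 and 76.6, without overlap (log2 fold change 1.23 ± 0.46, limma, unadjusted p = 0.0269, adjusted p = 0.573). Its higher level stood beside the higher sum of microglial markers in AP mice given above, whose part was not tested. Kcnip3 was at 96.8, 69.6 and 69.4 and at 94.1, 125 and 169.6, which overlap (log2 fold change 0.69, limma, unadjusted p = 0.0385, adjusted p = 0.616). Kcnk13, at 233, 257 and 257 and at 216, 187 and 133, and Kcnu1, at 24.4, 25.6 and 27.7 and at 20.2, 19.7 and 16.1, were lower in every AP mouse and did not pass (log2 fold change -0.51 and -0.46, limma, adjusted p = 0.683 and 0.668).

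Kcna1, Kcna6, Kcnq3 and Kcnj10, abundant in both groups, had log2 fold changes below 0 in AP mice and none passed the test. Kcna1 was at 1449, 2432 and 1589 in BA mice and at 2001, 951 and 576 in AP mice (log2 fold change -0.78 ± 0.44, limma, adjusted p = 0.702), with AP mouse 1 among the BA mice and the other AP mice below. Kcna6 was at 2009, 2227 and 1995 and at 2115, 1679 and 1233, Kcnq3 at 1565, 1953 and 1909 and at 1605, 1178 and 1494, and Kcna2 at 983, 1256 and 1319.8 and at 1188, 1327 and 1221, with log2 fold changes of -0.34, -0.35 and 0.08. Kcnj10 was at 3350.3, 4726 and 2965 and at 3289, 3076 and 2348 (-0.33), and Kcnj16 at 111, 125 and 119.7 and at 72.5, 380.3 and 219 (0.62), with AP mouse 1 the lowest. Kcnc1 was at 28.6, 22.5 and 20.4 and at 17.9, 41.7 and 20.4 (0.071). Kcnrg was at 32.9, 29.7 and 40.003 and at 62.3, 21.1 and 8.49, so that AP mouse 1 was above and AP mice 2 and 3 below the BA mice (-0.56). Kcnk5, a leak pore that acid closes, was at 40.4, 13.3 and 8.13 and at 7.68, 11.2 and 9.57 (-0.76), with BA mouse 1 far above the rest. For Kcnd2 and Kcnn2 the log2 fold changes were 0.11 and 0.73. The adjusted p values of the 53 channel genes were all 0.248 or higher. Of the 42 channel partners 28 were listed and 0 were called in limma, with 3 at an unadjusted p under 0.05 (Rims2 and Gem higher, Pex5l lower), where 7.77% of all genes were, and a median log2 fold change of 0.23. With so few genes this is no result about the partners.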

How the data were processed

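RNA of sorted cells was sequenced per mouse, and the authors deposited a normalized signal per gene and mouse in 2 tables. The paper names TMM scaling, removal of genes with low counts, and ARSyN against batch effects, and the submitters' processing notes name Salmon 1.2, bcl2fastq 2.20 and GRCm38.p6. It is not stated which of the tables ARSyN was run on. AV replicate 2 was not used here, so 2 AV mice stood against 3 BA mice, and the methods state that 1 AV mouse was left out as an outlier. Tables were normalized separately and tested separately. Where no genome build of a coordinate is named, it is GRCm38.

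Symbols, positions and exon lengths came from GENCODE M21, which matched 9871 of 9872 and 11783 of 11820 identifiers. On log2(value + 1), limma 3.58.1 (R 4.3.3) compared the groups for every gene of a table with no covariate, followed by Benjamini-Hochberg adjustment. Levels of different genes were compared per exon kilobase. The steps of 1 read held for between 87.7% and 91.6% of low values of BA and AP mice, within 1%, so the reads were not taken as counts. Such limits cover counting error only. In simulated data 200 genes were changed by a log2 change of 1, 2 or 3. For AV against BA 0%, 68.5% and 89.0% of them were called, and for AP against BA 0%, 70.5% and 92.5%. In the real AV comparison 2934 genes were called, and Scn8a passed at a log2 fold change of 0.94. With so many more changed genes the threshold is looser, so the simulated shares do not measure what the AV comparison can find.

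Named in each family were the called genes of the AV comparison that changed most, up to 3 in either direction, the 2 with the highest level per exon kilobase in BA mice, the most changed genes of the AP comparison in either direction, the main channels of forebrain neurons and the other called genes. Some members and markers that enter the counts, medians and sums are not reported here by name. Further uncalled members were named after their values were seen. The members, families and lists of markers and partners were chosen with earlier results of these data known. Python 3.11.15, numpy 2.4.6, pandas 2.3.3, scipy 1.17.1 and matplotlib 3.10.9 were used. Alternatives covered the pseudocount, filters on low values, a variance prior that follows expression, centring, the threshold, each mouse left out and the replicate number as a block.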

Additional observations from a re-analysis of the deposited data

How the results depend on the processing

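The medians of the AV comparison stayed above 0 in the settings given below, and the count of calls varied. The 30 channel genes called in AV mice were between 24 and 35 under other pseudocounts, filters, a prior that follows expression, centring and a threshold of 0.10, 20 at a threshold of 0.01, and 23 to 34 with a mouse left out (18 to 27 higher, 5 to 7 lower). Those higher numbered 24, and 15 at an adjusted p under 0.01. Whether replicate numbers mark pairs could not be decided. Same-numbered mice correlated at -0.060 and -0.039 in the AV comparison. The deviations of 2 AV mice mirror each other, so this check cannot exclude pairs. In the AP comparison same-numbered mice correlated at 0.020, 0.12 and 0.081. Each AP mouse correlated best with its own number, a hint from the data and not the design. With the replicate number as a block 19 were called, 3 of them lower instead of 6, and in AP mice still 0. The share of all genes called in each of these fits is not given. These counts thus show how stable the calls were and are no further result about channels.

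The pore-forming median of 0.96 was 0.86 with the replicate block and 0.69 to 1.24 with a mouse left out. The auxiliary median of 1.23 was 1.32 at a mean of at least 20, 1.15 after centring and 1.17 to 1.45 with a mouse left out. In AP mice 0 to 1 were called with a mouse left out. The 4 genes at an unadjusted p under 0.05 were 9 with a prior that follows expression. They were 18 without AP replicate 1 and 1 without AP replicate 3. The share of all genes under 0.05 is not given for these fits, so these counts are no result about channels. The medians ranged from -0.0146 to 0.23 for pore-forming genes and from 0.054 to 0.43 for auxiliary genes, the latter being 0.073 at a mean of at least 50.

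With a mouse left out the sign turned for uncalled genes of the AV comparison, among them Hcn3 (-0.036 to 1.205), Kcnt1 (-0.073 to 0.59), Kcnd1 (-0.45 to 1.72) and Kcnh8 (-0.91 to 0.74). In the AP comparison it turned without AP replicate 3 for Kcnrg (-1.27 to 0.099), Scn3b (-0.11 to 1.19) and Scn2a (-0.015 to 1.31), among others. The causes were not tested. A fit without 1 AV mouse assumes that the lone mouse varies like the BA mice. The reads behind the values of the BA vs AV table were not estimated, so the limit on Kcnrg rests on the other table.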

Other observations

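The ratio of the genes of a pair within 1 mouse does not depend on the scaling of the libraries. The 3 pairs below were chosen after their values were seen, because their ratios differed between AV and BA mice, and are given without a test. Other relatives moved in 1 direction, such as Kcnma1 with Kcnmb4, and Kcna1 with Kcna6. Per exon kilobase, of the sodium-activated pair, Kcnt1 was 13.4, 7.07 and 3.90 times Kcnt2 in BA mice 1, 2 and 3, and 0.950 and 0.530 times in AV mice 1 and 3. In the other table it was 14.7, 7.27 and 4.24 times Kcnt2 in BA mice and 9.68, 1.04 and 0.649 times in AP mice 1, 2 and 3, so that AP mouse 3 also had the higher level of Kcnt2. Among Kv1 pores Kcna1 was 3.72, 4.93 and 2.87 times Kcna2 in BA mice and 1.56 and 1.03 times in AV mice. In AP mice the ratio was 4.20, 1.78 and 1.18, against 3.67, 4.83 and 2.999 in BA mice of that table. Kcnj10 was 23.5, 26.4 and 16.8 times Kcnj16 in BA mice and 6.64 and 2.18 times in AV mice. In AP mice it was 33.0, 5.89 and 7.79 times Kcnj16, against 22.0, 27.5 and 18.03 in BA mice of that table. In each pair AP mouse 1 lay with or above the BA mice and AP mice 2 and 3 lay below them.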
